A study of Mus musculus with 8 samples.

Results

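The genes described here are those whose names mark them as parts of cilia, flagella and the centrioles from which these grow. They were chosen by name alone, among genes that the authors' m6A peak lists name: the prefixes Cfap, Dnah, Ift, Bbs, Ttll, Rsph, Tekt, Spag, Spef or Cep followed by a digit, together with Wdr60 and Togaram1. The rule found 82 genes among the 8733 with a peak in at least 1 of 4 lists and the 53465 identifiers of the authors' count table. By prefix they comprised 31 Cep, 14 Cfap, 10 Dnah, 8 Ttll, 5 Spag, 4 Ift, 3 Bbs, 2 Rsph and 2 Tekt genes, and Spef2, Togaram1 and Wdr60. Of these, 79 were protein-coding, and the Cep prefix also took in the non-coding genes Cep112it, Cep112os1 and Cep83os. Because a gene had to hold a peak to be chosen, having a peak at all is no finding about them.

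The series profiled m6A, that is RNA adenosine with a methyl group on its base, by MeRIP-seq, in which fragmented RNA is pulled down with an antibody against m6A and sequenced beside the unselected input RNA. Cells came from testes of 12-week-old C57BL/6 mice, either wild type (WT) or Alkbh5-/- (KO), and were labelled PA or RO. The title of the series names pachytene spermatocytes, cells in meiotic prophase, and round spermatids, the haploid cells that follow. Each genotype and fraction had 1 input and 1 immunoprecipitated library, 8 samples in all, so no difference below has a replicate check and none was tested. ALKBH5 is an enzyme that removes the methyl group of m6A, and the question put by the design is how the marked transcripts of both cell stages differ when it is missing.

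A sperm tail is built around an axoneme, a cylinder of microtubule doublets that slide against each other when dynein arms walk along them. Dynein heavy chains (Dnah genes) are the motors, radial spokes and the central pair of microtubules regulate them, tektins run inside the doublets, and tubulin ligases (Ttll genes) add glutamate or glycine chains to the microtubules. Intraflagellar transport (IFT) and the BBSome carry cargo along cilia, and centrosomal (Cep) proteins form the centrioles and the base of the cilium. Male germ cells are known to make many of these transcripts from meiosis on, before the tail itself grows in spermatids.

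The 4 input libraries held between 9921365 and 13147239 counts. Levels are given as CPM, the counts of a gene relative to the scaled (TMM) total of its library. Every one of the 82 genes reached a CPM of 10 in at least 1 library, and none had fewer than 79 counts in any library. Markers of pachytene spermatocytes did not separate the fractions: the 5 of 10 listed markers that could be named summed to 2747 CPM in WT and 1677 in KO PA cells, and to 2483 in WT and 1853 in KO RO cells. Sycp2 gave the largest part of these sums, while Ldhc was higher in KO than in WT. The 6 of 12 nameable round spermatid markers summed to 209, 363, 368 and 651 CPM in that order of libraries, higher in RO than in PA of each genotype. Prm2 made up the largest part of the sum in KO RO, whereas Acrv1 (54.7, 51.3, 136 and 77.6 CPM) and Acr (43.9, 31.3, 73.4 and 47.9 CPM) were highest in WT RO. Markers of Sertoli cells (4 of 8 named; 239, 318, 172 and 199 CPM), of peritubular muscle and endothelium (5 of 7; 433, 482, 229 and 425 CPM) and of Leydig cells (3 of 7; 155, 45.3, 47.7 and 17.4 CPM) were present in all 4 libraries. Spermatogonial markers (4 of 7; 33.4, 63.9, 24 and 47.2 CPM) and the single named macrophage marker Csf1r (1 of 8; 2.13, 12.3, 6.86 and 21.6 CPM) were higher in KO than in WT in both fractions. The summed pachytene markers were thus about as high in RO as in PA cells of the same genotype, somatic markers were not absent, and their part in the differences below was not tested. In these bulk samples fewer cells of a type and less RNA per cell cannot be told apart. Alkbh5 itself has no named row here and was not analysed here, so the genotype labels were not checked on it.

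Peaks of the cilium and axoneme genes were found in all 4 lists and were more numerous in the KO PA list than in the others. In PA the WT list held 97 such peaks in 51 of the 82 genes and the KO list 134 in 67; in RO the WT list held 114 in 63 and the KO list 106 in 55. The lists as a whole differed in the same direction, with 7502, 9931, 9418 and 8846 peaks. Per gene with a peak, the cilium and axoneme genes held 1.90, 2.00, 1.81 and 1.93 peaks in these lists, against 1.59, 1.63, 1.62 and 1.58 for other genes. In all 4 lists together 41 genes (50%) had a peak, compared with 34.4% of all genes with any peak, and 20 genes had one in a single list. All 82 genes reached 10 CPM in a library, but only 7053 of the 8733 genes with a peak did. Neither comparison was matched for level or transcript length.

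**Figure D1:**
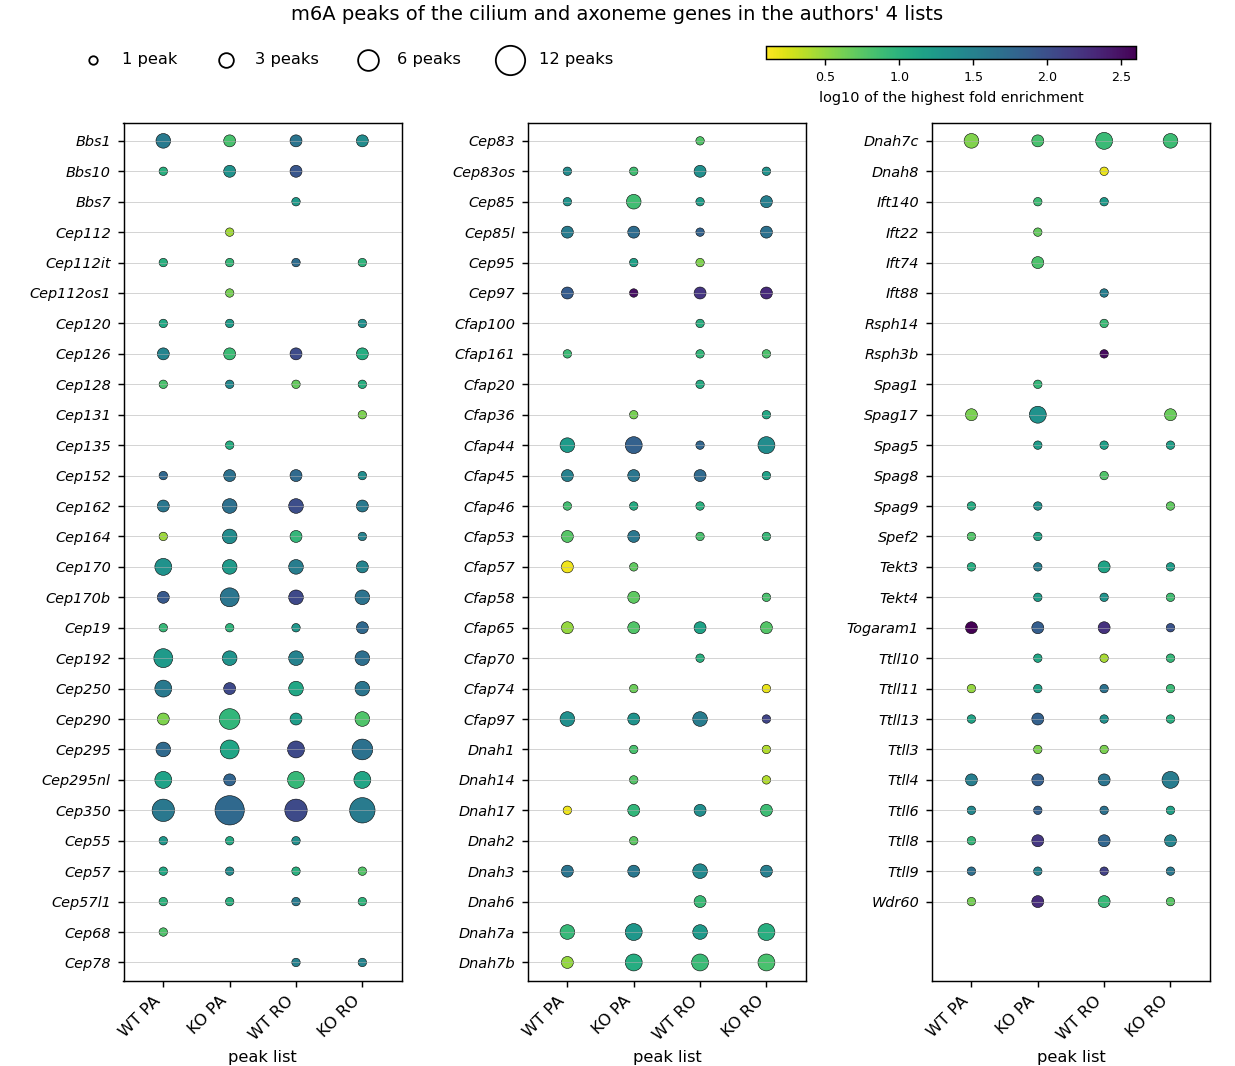
Each row is 1 of the 82 genes and each column 1 of the authors' 4 peak lists. The area of a circle grows with the number of peaks of the gene in that list, and the colour gives the log10 of the highest fold enrichment of immunoprecipitated over input RNA among them. Cep350 has the most peaks (12 in the KO PA list), and genes such as Dnah2, Ift88 and Rsph3b have a circle in 1 list only.

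Among the genes with a peak in 1 list, 11 were found in the WT RO list alone. They include the radial spoke genes Rsph14 and Rsph3b, the IFT gene Ift88, the BBSome subunit Bbs7, and the dynein heavy chains Dnah6 and Dnah8. A further 7 had a peak in the KO PA list alone, among them Dnah2, an inner arm heavy chain, and the IFT-B subunits Ift22 and Ift74. Cep68 had its peak in the WT PA list alone and Cep131 in the KO RO list alone. The share of genes with a peak in the WT RO list alone was 13.4% here and 14.3% among all genes with a peak, and for the KO PA list alone 8.54% and 7.54%, so these shares were close to the background. Another 5 genes, Cfap36, Cfap58, Cfap74, Dnah1 and Dnah14, had peaks in both KO lists and in neither WT list (6.10%, against 6.87% of all genes with a peak).

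Overlapping peaks of the 4 lists merged into 170 sites, of which 51 (30%) were covered in every list and 67 (39.4%) in 1 list. Of the single-list sites, 33 belonged to KO PA, 25 to WT RO, 5 to KO RO and 4 to WT PA. The fold enrichment quoted for a peak is the authors' value, taken here as the ratio of immunoprecipitated over input signal. It depends on the depth of each library pair, so folds are read within a list and not between lists.

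Cep genes, which encode centrosomal and centriolar proteins, carried about as many peaks as all the other families together: 51 and 66 in the WT and KO lists of PA, and 53 and 55 in those of RO. Cep350, a large centrosome-associated protein, had 7, 12, 7 and 9 peaks, the most of any gene in each list. Its 12 sites lay between positions 155847003 and 155953699 of chromosome 1 (mm10), in coding sequence and the 3′ untranslated region, and 5 of them were covered in all 4 lists. Cep97, which caps the ends of centrioles together with CP110, had among the highest folds, 76.7 in WT and 314 in KO PA, and 165 in WT and 199 in KO RO. These peaks formed 1 site on chromosome 16 (55905277 to 55918562) annotated to coding sequence or exon.

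Cep295, which acts in the making of centrioles, had coding sites close together on chromosome 9, 6 in all. The site at 15334307 to 15334816 had folds of 55.9, 12.9, 112 and 46.0. Cep170b, a protein related to the centriolar Cep170, had a coding site at 112738428 to 112739357 of chromosome 12 with folds of 81.2, 42.5, 75.3 and 44.3. Its coding site at 112736189 to 112736668 was called in all lists but KO RO, with a fold of 113 in the WT RO list. Cep164 had 1 coding site in every list (chromosome 9, 45806617 to 45807096), with folds of 2.91, 24.8, 4.71 and 30.9. Cep85 had a coding site (chromosome 4, 134155704 to 134156123) in the KO lists only, with folds of 7.27 in PA and 33.8 in RO. These 4 genes fall under the naming rules given with the processing, which pick genes by their values in these same data.

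Togaram1 and Wdr60, the genes that the rule names singly, both had a site in every list. Togaram1 encodes a TOG-domain protein that regulates axonemal microtubules. Its coding site on chromosome 12 (64966794 to 64976749) had the highest fold of the entire WT PA list, 408, and folds of 72.4 in the KO PA list, 177 in that of WT RO and 91.4 in that of KO RO. Wdr60 encodes an intermediate chain of dynein-2, the motor of retrograde IFT. Its shared coding site (chromosome 12, 116255849 to 116262561) had folds of 4.21, 40, 8.46 and 5.67. A neighbouring coding site (116248100 to 116255221) with a fold of 193 was called in KO PA alone.

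Dynein heavy chain peaks had low folds, with medians of 3.11 and 5.86 in the WT and KO lists of PA and 7.37 and 3.49 in those of RO, compared with 11.9, 13.1, 15.1 and 12.2 for genes outside the set. Across all 82 genes the medians were 7.96, 9.21, 13.6 and 8.15. Dnah3, an inner arm heavy chain, had higher folds than the rest of its family: its peaks lay in the 3′ untranslated region on chromosome 7, and the site at 119951732 to 119952691 reached 43.9, 40.8, 26.6 and 33.6. Dnah7a, Dnah7b and Dnah7c each had peaks in all 4 lists, all in coding sequence. These close copies of one inner arm gene may share reads, so their individual peaks and counts are uncertain. Dnah17, an outer arm heavy chain, had a coding site (chromosome 11, 118104431 to 118108096) in every list, with folds of 1.45, 2.77, 6.29 and 2.44.

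Other families had fewer peaks. The Ttll genes had 7, 11, 10 and 11 peaks in the lists; Ttll4, an enzyme that starts glutamate chains on tubulin, had a site of coding sequence on chromosome 1 (74673178 to 74680347) with folds of 34.4, 70.7, 43.5 and 36.5. A coding site of the glycine ligase gene Ttll8 (chromosome 15, 88914022 to 88914559) had folds of 8.85, 158, 60.7 and 29.4. IFT genes had no peak in the WT PA and KO RO lists, 4 in KO PA and 2 in WT RO, none of which overlapped between lists. On so few peaks this says little: 0 of the 4 KO PA peaks had a WT PA counterpart (95% Wilson interval up to 49%), against 56.6% of the KO PA peaks of genes outside the set. Both Rsph genes had a single peak, in the WT RO list only, and the Rsph3b peak, made of 3 exon blocks on chromosome 17 between 6911315 and 6941687, had a fold of 334. Rsph3b has a close paralogue, so this peak and its counts are uncertain.

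The tektin genes had peaks in different places in different lists. Tekt4 showed a 5′ untranslated peak (chromosome 17, 25471590 to 25471767, fold 20.2) in WT RO and a coding peak (25471855 to 25472120) in KO PA and KO RO with folds of 16.5 and 7.43. Tekt3 had a coding site on chromosome 11 (63070209 to 63073492) in every list, with folds of 11.3, 35.0, 12.6 and 16.8, and a further coding peak with a fold of 14.1 in WT RO alone.

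Coding sequence held most of the peaks of these genes, and a larger share than in other genes. In PA its share was 78.4% of the WT peaks (76 of 97; 95% Wilson interval 69.2 to 85.4) and 75.4% of the KO peaks (67.4 to 81.9). In RO it was 70.2% (61.2 to 77.8) for WT and 78.3% (69.5 to 85.1) for KO. For other protein-coding genes the shares were 63.2%, 61.3%, 57.2% and 59.4%. These intervals cover counting error only, and peaks of 1 gene are not independent of each other. Without the Cep family the shares were 65.2% and 69.1% in the WT and KO lists of PA and 60.7% and 70.6% in those of RO, nearer to other protein-coding genes in the WT lists than in the KO lists.

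The 3′ untranslated region held 14.4%, 13.4%, 16.7% and 17.0% of the peaks, against 23.4%, 24.5%, 28.5% and 27% for other protein-coding genes. Peaks that span more than 1 exon block made up 22.7% (15.5 to 32.0) of the WT and 46.3% (38.1 to 54.7) of the KO peaks in PA, and 22.8% (16.1 to 31.3) of the WT and 33.0% (24.8 to 42.4) of the KO peaks in RO. Other protein-coding genes had 14.3%, 21.9%, 13.4% and 16.6%, so that the KO PA list was highest in both sets of genes. No test was made of these differences.

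**Figure D2:**
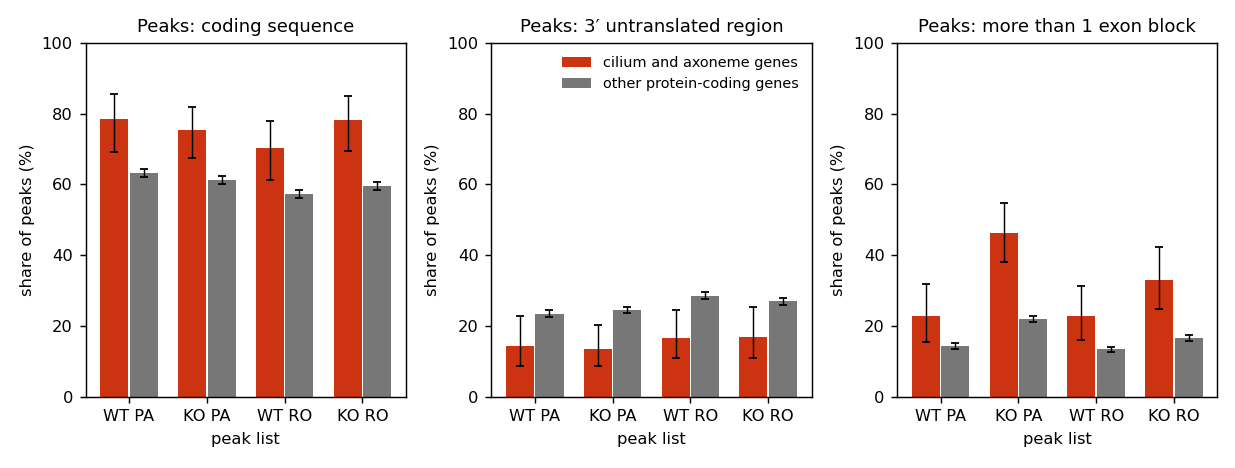
Bars give the share of peaks, in percent, annotated to coding sequence, annotated to the 3′ untranslated region, and made of more than 1 exon block, in each of the 4 lists; red bars are the cilium and axoneme genes and grey bars other protein-coding genes. Error bars are 95% Wilson intervals for counting error. The coding share of the red bars lies between 70.2% and 78.4%, above the grey bar in every list.

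A larger share of WT PA peaks of these genes than of KO PA peaks had a counterpart in the other genotype. A counterpart, meaning a same-strand overlap of exon blocks by 1 bp or more, was found for 90.7% of the WT PA peaks (88 of 97; Wilson interval 83.3 to 95), and for 79.6% of the WT PA peaks of other genes. Of the KO PA peaks 56.7% (48.3 to 64.8) had a WT PA counterpart, and 56.6% in other genes. In RO, 67.5% of WT peaks (58.5 to 75.4) and 72.6% of KO peaks (63.5 to 80.2) were matched, compared with 55.7% and 58.7% in other genes. Peaks with a false discovery rate of 0.05 or more were rarer in the set. They made up 2.06% (WT PA), 0.75% (KO PA), 0.88% (WT RO) and 0.94% (KO RO) of its peaks. In other genes they made up 6.94%, 2.17%, 13.2% and 3.57%. Neither these shares nor those between stages were matched for this or for level. All 11 Dnah peaks of the WT PA list were matched in KO PA.

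Between stages within WT, 78.4% of PA peaks (69.2 to 85.4) and 64.9% of RO peaks (55.8 to 73.1) had a counterpart, against 63.9% and 50.4% in other genes. Within KO the shares were 66.4% of PA peaks (58.1 to 73.9) and 90.6% of RO peaks (83.5 to 94.8), against 70.1% and 81.0%. Peaks of the set without a counterpart had lower folds, for example a median of 5.99 against 16.8 for matched peaks of the KO PA list. A reciprocal overlap of 50% of the exonic length lowered several of these shares by over 1.5 times, the WT PA to KO PA share to 58.8%, the WT RO to KO RO share to 42.1% and the KO RO to WT RO share to 45.3%.

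The input libraries showed the transcripts of this set mostly lower in KO than in WT, in both fractions. In PA, 14 of the 82 genes were at least 2-fold lower and 0 at least 2-fold higher, and in RO again 14 were lower and 0 higher. Among all genes that reached a CPM of 1 in one of the libraries compared, 19.9% were at least 2-fold lower and 23.8% higher in PA, and 19% lower and 23% higher in RO, so the 17.1% of this set that was lower was near the background. At a CPM of 10, which all 82 genes reached, the background was 13% lower and 13.3% higher in PA, and 12.9% lower and 11.8% higher in RO. Ratios scattered more widely at low counts. In PA the robust SD of the log2 ratio was 1.76 over the 3147 genes of 40 to 80 counts in the library pair. It was 0.59 over the 720 most counted genes. Genes of 40 to 80 counts in the pair lie under 10 CPM, so they are part of the background at 1 CPM only. The median log2 ratio of the set was -0.42 in PA and -0.47 in RO, whereas all genes that reached 10 CPM had medians of -0.04 and -0.05, and genes with a peak in any list -0.06 and -0.07. When libraries were scaled by their total count alone, the median over all genes shifted to 0.28 in PA and 0.15 in RO; the set then stood at -0.13 in PA, with 2 genes higher and 9 lower, and at -0.29 in RO, with 0 higher and 12 lower. The count of genes below 0 in the set fell from 61 to 44 in PA and from 68 to 55 in RO.

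High counts went along with low ratios in all genes, and this is given beside the result for that reason. Of all genes, 241 had at least 20000 counts over the 4 input libraries, a limit chosen after the data were seen; their median log2 ratio was -0.43 in PA and -0.34 in RO. The 19 cilium and axoneme genes of that size had medians of -0.92 and -0.95, with 42.1% at least 2-fold lower in each fraction, against 16.6% and 14.1% of the 241. Between 5000 and 20000 counts the 33 genes of the set had medians of -0.23 and -0.23, close to the -0.23 and -0.20 of the 1651 genes of that size. The 30 genes of the set under 5000 counts had medians of -0.15 and -0.53, against 0.02 and 0.004 for genes of that size that reached 10 CPM. The set thus stood below equally counted genes in the highest class in both fractions and, in RO, in the lowest class, but not in the middle one. Of the 19 most counted members, 10 are the dynein heavy chains.

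**Figure D3:**
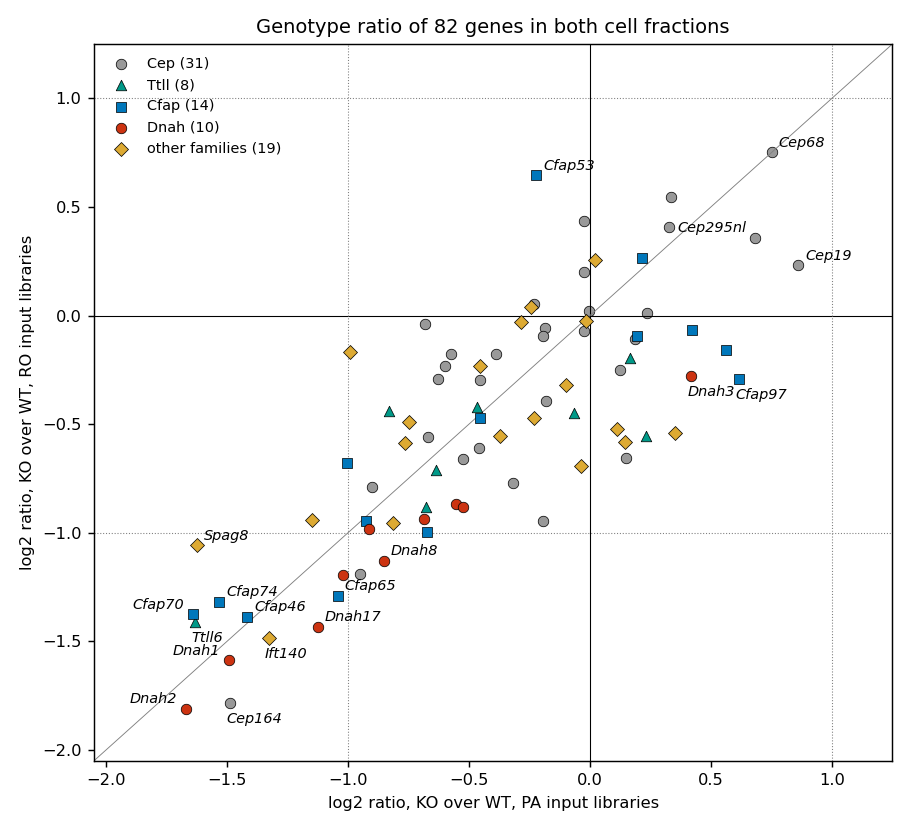
Each point is 1 of the 82 genes, with its log2 ratio of KO over WT in the PA input libraries on the x axis and in the RO input libraries on the y axis, coloured by family; dotted lines mark 2-fold and the diagonal marks equal ratios. Of the 82 points 55 lie below 0 on both axes and 8 above 0 on both under the TMM scaling, and Dnah2 (-1.67 and -1.81) is the lowest.

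Both KO libraries lay at least 2-fold under both WT libraries for 10 genes: Dnah1, Dnah2, Dnah17, Cfap46, Cfap65, Cfap70, Cfap74, Ift140, Ttll6 and Cep164. That is 12.2% of the set, against 4.19% of all genes that reached 10 CPM in a library. Of the 19 most counted members 31.6% met it, against 9.13% of the 241 genes of that size. Between 5000 and 20000 counts the shares were 12.1% and 8.06%, and under 5000 counts 0% and 3.55%. No gene of the set lay at least 2-fold above in both (background 3.41%). Without a size limit, 43 genes (52.4%, background 27.4%) had both KO libraries under both WT libraries, and 6 (7.32%, background 23.8%) had both above. At any size the background rises with count and the middle class showed no excess. Both KO libraries were under both WT libraries for 84.2% of the 19 most counted members and 59.3% of all genes of that size. The shares were 39.4% and 43.7% between 5000 and 20000 counts, and 46.7% and 24.5% under 5000. The labels do not say whether the PA and RO cells of a genotype came from the same animals.

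Dynein heavy chains, the motors of the axoneme, had the lowest medians of the larger families, with log2 ratios of -0.88 in PA and -1.06 in RO. For 9 of the 10 Dnah genes both KO libraries were under both WT libraries, a condition that 59.3% of the 241 genes with as many counts also met. Dnah2, an inner arm heavy chain, stood at 1958 CPM in WT and 616 in KO PA cells, and at 2230 in WT and 636 in KO RO cells. Its WT libraries were close to each other, as were its KO libraries, and the groups did not overlap. The log2 ratio of KO over WT was -1.67 (-1.71 to -1.63) in PA and -1.81 (-1.85 to -1.77) in RO, with exact 95% binomial intervals that cover counting error only, and the KO level was 3.18-fold and 3.5-fold lower.

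Dnah1, another inner arm chain that is needed for sperm tails, followed the same order. It was at 836 CPM in WT and 297 in KO PA cells, and at 899 in WT and 299 in KO RO cells, that is 2.81-fold and 3.0-fold lower in KO. Dnah17, an outer arm chain of sperm, was at 2384 CPM in WT and 1093 in KO PA cells, and at 2884 in WT and 1068 in KO RO cells. Its log2 ratios were -1.12 (-1.16 to -1.09) in PA and -1.43 (-1.46 to -1.40) in RO. Dnah8, the other outer arm chain of sperm and the most counted gene of the set, was at 4837 CPM in WT and 2678 in KO PA cells, and at 4950 in WT and 2265 in KO RO cells. Its log2 ratios were -0.85 and -1.13, so that it passed 2-fold in RO but not in PA.

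Dnah14 was at 1910 CPM in WT and 942 in KO PA cells, and at 1700 in WT and 743 in KO RO cells. Both KO levels were under both WT levels. The near copies Dnah7a, Dnah7b and Dnah7c, named here after their values were seen, had log2 ratios of -0.92, -0.55 and -0.53 in PA and of -0.98, -0.87 and -0.88 in RO. Dnah3 alone in its family overlapped between the genotypes, at 405 CPM in WT and 542 in KO PA cells, and at 821 in WT and 678 in KO RO cells. Dropping the 3 Dnah7 copies left the medians of the set at -0.37 in PA and -0.45 in RO.

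Cfap genes were split. Cfap46 and Cfap74, which belong to the central apparatus, and Cfap65 and Cfap70 were all at least 2-fold lower in KO. Cfap74 stood at 2074 CPM in WT and 717 in KO PA cells, and at 1976 in WT and 793 in KO RO cells, with log2 ratios of -1.53 (-1.57 to -1.5) in PA and -1.32 (-1.35 to -1.28) in RO. Cfap46 was at 1082 CPM in WT and 405 in KO PA cells, and at 1252 in WT and 479 in KO RO cells. Cfap70, a protein associated with the outer dynein arm, was at 499.5 CPM in WT and 159.9 in KO PA cells, and at 536 in WT and 206 in KO RO cells. Cfap65, the most counted Cfap gene, was at 2073 CPM in WT and 1006 in KO PA cells, and at 2471 in WT and 1011 in KO RO cells. In each of these 4 genes the KO libraries were under both WT libraries in both fractions.

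Cfap97 and Cfap53 did not follow them. Cfap97 was at 77.2 CPM in WT and 118 in KO PA cells, and at 105 in WT and 85.7 in KO RO cells, higher in KO in PA and lower in KO in RO. Cfap53, found at centriolar satellites and in the axoneme, was at 60.8 CPM in WT and 52.0 in KO PA cells, and at 40.7 in WT and 63.8 in KO RO cells, with the highest value of the 4 in KO RO. Over the 14 Cfap genes the median log2 ratios were -0.56 in PA and -0.57 in RO, and 5 and 4 genes were at least 2-fold lower.

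Among transport and tubulin genes, Ift140 and Ttll6 separated most clearly by genotype. Ift140 encodes a subunit of IFT-A, the complex of retrograde transport, and was at 378 CPM in WT and 150.5 in KO PA cells, and at 410.2 in WT and 146 in KO RO cells. Its log2 ratios were -1.33 (-1.41 to -1.25) and -1.49 (-1.57 to -1.40). The IFT-B genes Ift22, Ift74 and Ift88, named after their values were seen, had smaller ratios, between -0.45 and 0.14 in PA and between -0.58 and 0.04 in RO.

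Ttll6, a ligase that lengthens glutamate chains, was at 372 CPM in WT and 120.0 in KO PA cells, and at 492 in WT and 184 in KO RO cells, or 3.1-fold and 2.66-fold lower in KO. The other 7 Ttll genes were within 2-fold in both fractions. Of the 5 Spag genes all had a ratio below 0 in both fractions, and 4 when scaled by total count; Spag9, a scaffold protein and the most counted of them, was at 746 CPM in WT and 611 in KO PA cells, and at 584 in WT and 573 in KO RO cells, with KO under WT in PA and nearly equal in RO. In the BBSome, Bbs1 was at 114 CPM in WT and 64.6 in KO PA cells, and at 115 in WT and 59.4 in KO RO cells, and its groups did not overlap.

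Cep genes as a family stood close to the background, with median log2 ratios of -0.19 in PA and -0.18 in RO, which turned to 0.09 and 0.0004 when scaled by total count, and 1 and 2 of 31 genes at least 2-fold lower. Cep164, which builds the distal appendages that anchor the cilium, differed from the rest. It was at 257 CPM in WT and 91.4 in KO PA cells, and at 248 in WT and 71.7 in KO RO cells, with log2 ratios of -1.49 (-1.60 to -1.39) in PA and -1.79 (-1.90 to -1.67) in RO. Cep290, a transition zone protein and the most counted Cep gene, was at 559 CPM in WT and 488 in KO PA cells, and at 604 in WT and 566 in KO RO cells. Cep350, the gene of most peaks, was at 416 CPM in WT and 408 in KO PA cells, and at 365 in WT and 419 in KO RO cells. Neither of them passed 2-fold in either fraction.

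A few genes were higher in KO, none by 2-fold in either fraction. Cep68, which holds centrosomes together, was at 16.2 CPM in WT and 27.4 in KO PA cells, and at 11.4 in WT and 19.3 in KO RO cells, with log2 ratios of 0.75 (0.49 to 1.03) and 0.75 (0.44 to 1.09). Cep19, which takes part in the start of ciliogenesis, was at 14.0 CPM in WT and 25.5 in KO PA cells, and at 19.9 in WT and 23.4 in KO RO cells, and Cep295nl at 58.0 CPM in WT and 93.1 in KO PA cells, and at 113 in WT and 145 in KO RO cells. The non-coding Cep112it, which lies within Cep112 and whose counts may include reads of that gene, was at 24.0 CPM in WT and 30.3 in KO PA cells, and at 29.3 in WT and 42.8 in KO RO cells.

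Togaram1 and Wdr60 differed little by genotype under the TMM scaling. Togaram1 was at 248 CPM in WT and 245 in KO PA cells, and at 323 in WT and 317 in KO RO cells, with KO over WT log2 ratios of -0.02 (-0.09 to 0.06) in PA and -0.03 (-0.09 to 0.04) in RO. Wdr60 was at 363 CPM in WT and 368 in KO PA cells, and at 337 in WT and 402 in KO RO cells, with ratios of 0.02 (-0.04 to 0.08) and 0.26 (0.19 to 0.32). The intervals of both Togaram1 ratios and of the PA ratio of Wdr60 include 0. Scaled by total count, the ratios were 0.27 and 0.15 for Togaram1, a change of sign, and 0.31 and 0.43 for Wdr60.

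**Figure D4:**
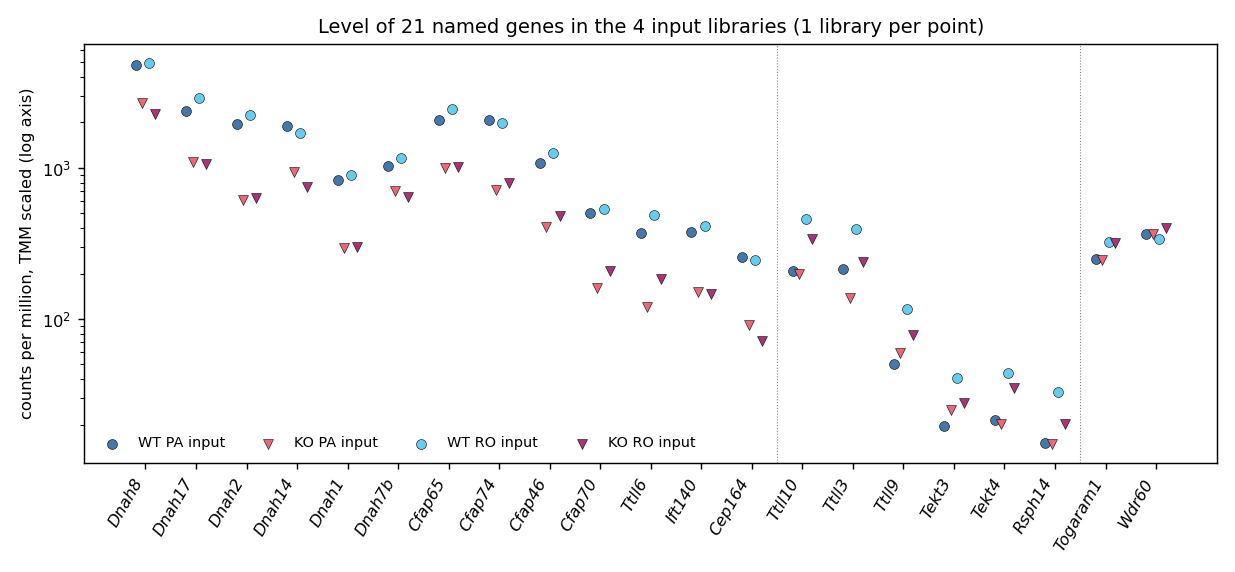
TMM-scaled CPM, on a log axis, of 21 named genes in each of the 4 input libraries, 1 library per point; circles are WT, triangles KO, and dotted lines part the genes into those mostly lower in KO, those mostly higher in RO, and Togaram1 and Wdr60. In Dnah2 the KO triangles lie near 616 and 636 CPM, under the WT circles at 1958 and 2230 CPM.

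Genes with a peak in one genotype's list only were mostly lower in KO, as were those with a peak in both. In PA, 18 genes had a peak in the KO list only and a median log2 ratio of KO over WT of -0.45, and 49 with a peak in both lists had a median of -0.29. The 13 genes with a peak in neither had a median of -0.68. The 2 genes with a PA peak in the WT list only, Cep68 and Cfap161, were exceptions, with log2 ratios of 0.75 and 0.56. In RO, 9 genes with a peak in KO only had a median of -0.49, 17 with one in WT only a median of -0.71, and 46 with one in both a median of -0.31. Under the TMM scaling all 17 genes whose RO peaks were in the WT list only had a ratio below 0 in RO. Some of these ratios were small, and the counting intervals of Cep83 (-0.16 to 0.01) and Bbs10 (-0.42 to 0.08), for example, include 0. Whether the level of a transcript bears on the calling of its peaks was not tested.

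The promoters of this set were examined because RFX transcription factors, which control ciliary genes, bind a DNA element called the X-box. RefSeq promoter windows on GRCm38.p6, the assembly that mm10 also names, reached from 250 bases before to 50 bases after each start and were found for 70 of the 82 genes (81 windows). The letters GTTGCC, one arm of the X-box, or their reverse complement GGCAAC, were present in 31 of the 81 windows (38.3%) and in 12.5% of all 32851 windows. By gene, 29 of 70 (41.4%) had them, against 14.1% of all other genes with a window. The pattern used here for the full X-box was found in 0 of the 81 windows and in 0.0700% of all windows. Looser forms of the X-box were not searched for, so these values do not show that it is absent. A match is a description of these letters and shows no binding.

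By family the letters were present in 7 of 25 Cep genes with a window, 7 of 11 Cfap, 4 of 7 Ttll, 3 of 9 Dnah, 2 of 4 Ift and 2 of 3 Bbs genes. The stretches shown here come from genes that were at least 2-fold lower in both KO libraries (Cfap74, Cfap46 and Ift140) and from Ttll genes with higher levels in WT RO than in WT PA. Each lies before the start, is written 5′ to 3′ on the strand of the gene, and has the matched letters in capitals.
Cfap74: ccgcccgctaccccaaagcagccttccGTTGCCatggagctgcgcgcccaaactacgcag
Cfap46: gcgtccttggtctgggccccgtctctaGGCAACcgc
Ift140: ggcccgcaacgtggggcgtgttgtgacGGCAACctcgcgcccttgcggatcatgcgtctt
Ttll3: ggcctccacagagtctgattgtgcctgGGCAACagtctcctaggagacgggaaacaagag
Ttll8: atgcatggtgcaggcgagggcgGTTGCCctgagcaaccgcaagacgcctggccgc
Ttll9: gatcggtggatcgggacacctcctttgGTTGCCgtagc
Ttll10: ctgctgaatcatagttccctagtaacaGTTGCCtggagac

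These stretches lie at chr4:155409176-155409235, plus strand, for Cfap74, at chr7:139683816-139683851, minus strand, for Cfap46, and at chr17:25015950-25016009, plus strand, for Ift140. Those of the Ttll genes lie at chr6:113392371-113392430, plus strand, for Ttll3, at chr15:88954614-88954668, minus strand, for Ttll8, at chr2:152962447-152962484, plus strand, for Ttll9, and at chr4:156050818-156050857, minus strand, for Ttll10. In Cfap74, Ttll9, Ttll10 and Cfap46 the letters end within 32 bases of the start.

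The letters also stand in the promoters of the near copies Dnah7a, Dnah7b and Dnah7c, and those of Dnah7a and Dnah7c are shown.
Dnah7a: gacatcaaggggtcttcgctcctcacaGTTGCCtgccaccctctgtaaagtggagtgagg
Dnah7c: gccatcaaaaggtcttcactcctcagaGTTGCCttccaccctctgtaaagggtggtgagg

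These stretches (chr1:53706952-53707011, minus strand, and chr1:46425272-46425331, plus strand) are identical at 51 of 60 bases. The Dnah7b stretch, not shown, was identical to that of Dnah7a at 26 of 60 bases. The windows of Dnah1, Dnah2, Dnah17, Ttll6 and Cfap70, all at least 2-fold lower in KO, held no match, which says only that these letters are not in those 300 bases. The 29 genes with the letters had median log2 ratios of KO over WT of -0.55 in PA and -0.71 in RO, and the 41 without them -0.39 and -0.42, so both groups were below 0. In RO over PA the medians were 0.21 with and 0.09 without the letters in WT, and 0.15 and 0.13 in KO.

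Stage ratios of these genes were mostly small and leaned towards RO. In WT, 6 of the 82 genes were at least 2-fold higher in RO than in PA and 0 lower, while 21.6% of all genes above the same limit were higher and 18.7% lower. In KO, 0 were higher and 0 lower, against 17.5% and 15.2% of all genes. At a CPM of 10 the background was 11.5% higher and 9.64% lower in WT and 5.21% higher and 5.64% lower in KO, and among genes of 5000 to 20000 counts it was 0.303% and 0.424% in KO, so the absence of calls in KO is no mark of the set. The medians of the set were 0.16 in WT and 0.14 in KO, and those of all genes that reached 10 CPM were -0.03 and -0.02. Both RO libraries were above both PA libraries, at any size, for 21 genes (25.6%, background 15.8%), and below for 3 (3.66%, background 17%), namely Cep152, Cep83 and Spag9. At 2-fold, 0 genes of the set met either condition (background 0.877% above and 0.687% below).

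**Figure D5:**
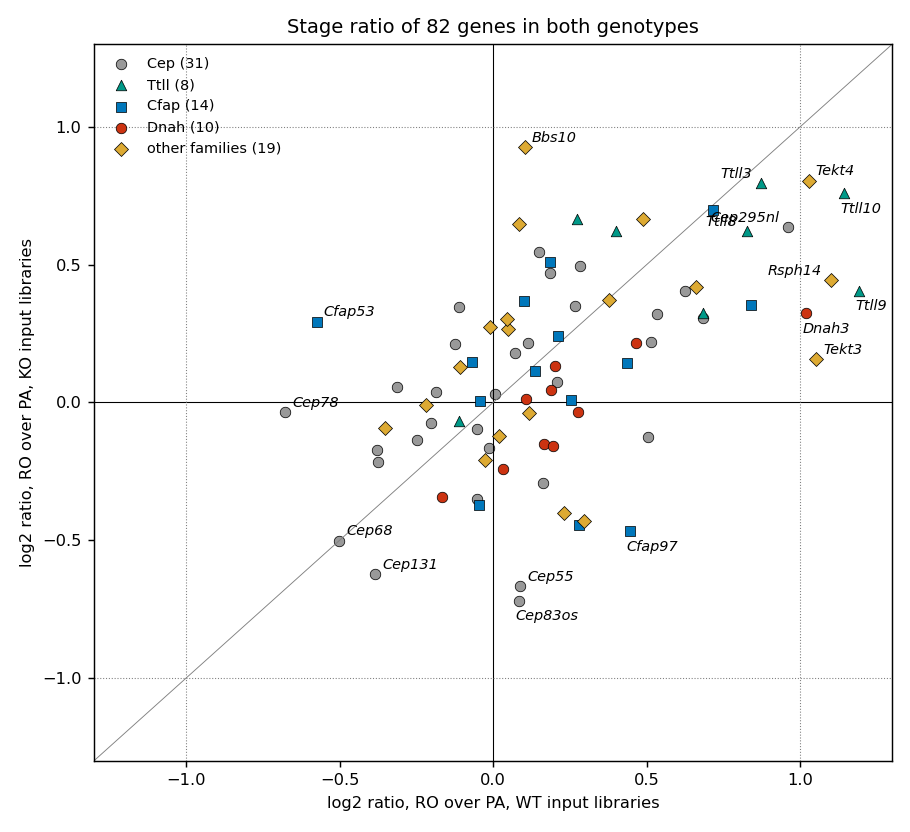
Each point is 1 of the 82 genes, with its log2 ratio of RO over PA in WT on the x axis and in KO on the y axis, coloured by family; dotted lines mark 2-fold and the diagonal marks equal ratios. Of the 82 points 43 lie above 0 on both axes and 16 below 0 on both, and Ttll9, Ttll10, Rsph14, Tekt3, Tekt4 and Dnah3 lie past 2-fold in WT.

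Tubulin ligases had the highest stage medians of the larger families, 0.75 in WT and 0.62 in KO. Ttll9, a glutamate ligase that acts on sperm tails, was at 50.6 CPM in WT and 59.4 in KO PA cells, and at 116 in WT and 78.8 in KO RO cells. Its RO over PA log2 ratio was 1.19 (1.05 to 1.34) in WT and 0.41 (0.26 to 0.56) in KO, so RO was higher in both genotypes. Ttll10, which lengthens glycine chains, was at 209 CPM in WT and 199 in KO PA cells, and at 461 in WT and 337 in KO RO cells, and Ttll3, which starts them, at 214 CPM in WT and 138 in KO PA cells, and at 392 in WT and 239 in KO RO cells. For both, every RO library was above every PA library. Ttll8, also a glycine ligase, was at 256 CPM in WT and 160 in KO PA cells, and at 453 in WT and 246 in KO RO cells, and here KO RO stayed under WT PA.

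Some structural genes of the axoneme were also higher in RO in WT. Tekt4, a tektin of sperm tails, was at 21.5 CPM in WT and 20.1 in KO PA cells, and at 44.0 in WT and 35.1 in KO RO cells, with RO over PA log2 ratios of 1.03 (0.81 to 1.26) in WT and 0.80 (0.57 to 1.06) in KO. Tekt3 was at 19.5 CPM in WT and 25 in KO PA cells, and at 40.6 in WT and 27.9 in KO RO cells, with ratios of 1.05 (0.83 to 1.29) and 0.16 (-0.08 to 0.40). Rsph14, a radial spoke protein, was at 15.2 CPM in WT and 14.8 in KO PA cells, and at 32.7 in WT and 20.2 in KO RO cells. Spef2, a central pair protein required for sperm tails, was at 143 CPM in WT and 122 in KO PA cells, and at 226 in WT and 162 in KO RO cells, where WT RO and KO RO were the highest. 

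Dynein heavy chains differed little by stage, with median ratios of 0.19 in WT and -0.01 in KO. The exception was Dnah3, whose WT ratio was 1.02 (0.97 to 1.07) and whose KO ratio was 0.32 (0.27 to 0.37). Some Cep genes were lower in RO: Cep78 was at 49.7 CPM in WT and 30.9 in KO PA cells, and at 31.0 in WT and 30.1 in KO RO cells, and Cep131, a centriolar satellite protein, at 96.8 CPM in WT and 50 in KO PA cells, and at 74.2 in WT and 32.4 in KO RO cells. Cep55, a protein of the midbody, was at 50.5 CPM in WT and 44.2 in KO PA cells, and at 53.7 in WT and 27.8 in KO RO cells, lowest in KO RO. The non-coding Cep83os, at 64.2 CPM in WT and 71.2 in KO PA cells, and at 68.1 in WT and 43.2 in KO RO cells, had its lowest level in the same library; its name places it opposite Cep83, and whether the counting used strand is not given in the sources used here, so reads of the pair may not be told apart. Bbs10, a chaperonin-like helper of BBSome assembly, was at 23.5 CPM in WT and 11.7 in KO PA cells, and at 25.3 in WT and 22.5 in KO RO cells, with KO PA standing lowest.

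Other genes of the same machinery, from lists of partners, were less complete because only genes with a peak have names here. Among all genes at 1 CPM, 23.8% passed 2-fold upwards and 19.9% downwards between WT and KO in PA, and 23% and 19% in RO. Genes with a peak are the closer comparison. At 1 CPM their shares were 12.96% upwards and 14.07% downwards in PA, and 13.26% and 13.7% in RO. In lists this short each gene weighs heavily on a share, and no count was tested against these. Of 11 named axonemal dynein partners and assembly factors (22 listed), 0 were at least 2-fold higher in KO and 2 lower in PA (Dyx1c1 and Zmynd10), and 0 higher and 4 lower in RO (Dnaaf1, Dnaaf2, Dnali1 and Zmynd10), with medians of -0.67 and -0.59. Dyx1c1 had only 30 counts in WT and 12 in KO PA cells, and its log2 ratio in RO was 0.28. Some genes of this list encode factors that fold dynein arms in the cytoplasm, and some encode parts of the arms. Of 12 named genes listed under the nexin-dynein regulatory complex and central apparatus (25 listed), 1 was higher (Ropn1) and 2 lower (Drc1 and Tcte1) in PA, and 1 higher (Ropn1) and 1 lower (Tcte1) in RO, with medians of -0.46 and -0.31. The list is wider than its name, and a place of Ropn1 in either structure is not claimed.

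Of 10 named partners of intraflagellar transport (24 listed), 3 were higher and 0 lower in KO in PA (Arl6, Ttc30a1 and Ttc30b). That is a larger share than the 12.96% of genes with a peak, but it rests on 3 genes. In RO 0 were higher and 1 lower (Ttc30a2), and the medians were 0.16 in PA and -0.26 in RO. The Ttc30 genes are near copies whose counts are uncertain. The 17 named genes listed under transition zone and ciliary membrane (30 listed) had 3 higher and 5 lower in PA and 3 higher and 3 lower in RO, with medians of -0.51 and -0.37. Those higher were Gli3, Rpgr and Tmem216 in PA, and Gli3, Ptch1 and Rpgr in RO. Those lower were B9d2, Intu, Rpgrip1, Tctn1 and Tmem231 in PA, and Tctn1, Tmem216 and Tmem231 in RO. B9d2 had 71 counts in WT and 2 in KO PA cells, and Tmem216 changed sign between fractions (1.21 and -1.48). For 19 of 25 centriole and centrosome genes the counts were 1 higher and 2 lower in each fraction, with medians of -0.61 and -0.42, and Cntrob and Ninl were lower in both.

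Tubulin modification genes outside the Ttll family (10 of 15 named) had 0 higher and 1 lower in PA and 1 higher and 1 lower in RO, with medians of -0.12 and -0.56, the first of which turned to 0.17 when scaled by total count. Of the ciliary transcription factors 4 of 10 were named and 0 passed 2-fold between genotypes in either direction. Their stage ratios were all above 0 in both genotypes, with medians of 0.68 in WT and 0.58 in KO; Foxj1, a master regulator of motile cilia, was at least 2-fold higher in RO in both genotypes, with log2 ratios of 1.84 and 1.31.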

How the data were processed

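The members and gene lists were chosen with earlier results of these data known. The authors deposited whole-number gene counts of the 4 input libraries, not normalized, under Ensembl identifiers, and 4 peak lists. Per the submitters' processing notes cutadapt 2.5, HISAT2 2.1.0, HOMER 4.10.4 and the build mm10 were used, with no role stated. Counting tool, strand and multi-read handling are not given in the sources used here. Per the file headers each peak has exon blocks, a class, a gene and a fold enrichment, which is the authors' ratio. A column named as a score holds a p-value in the deposited lists, as its values show, and logs of p and of the false discovery rate are deposited as log10 scores. The name of a list alone assigned it to a group, and immunoprecipitated counts were not analysed here.

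Counts were scaled by TMM (edgeR 4.0.16, R 4.3.3), and log2 ratios used a prior count of 2. Genes needed 1 CPM in one of the libraries compared; separation of both pairs used 10. All 82 members passed both. The total of 9921365 to 13147239 counts per library sets the precision; intervals are exact binomial, or Wilson for shares, at 95%, and cover counting error only. With 1 library per group nothing was tested. Symbols come from the peak lists. Genes named are Togaram1, Wdr60, the 3 highest and lowest ratios per comparison, members separated 2-fold, the 3 highest folds and 2 most peaks per list, the most counted member per family, and the 3 highest unmatched peaks per genotype pair; other members named are examples chosen after their values were seen.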

Additional observations from a re-analysis of the deposited data

Results flagged for a closer look

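Several named genes pointed in opposite directions in the same contrast, with counting intervals that exclude 0 on both sides. These differences were not tested, since each group has 1 library. The ratios follow as log2 values. KO over WT was 0.15 in PA and -0.65 in RO for Cep83os, -0.22 and 0.65 for Cfap53, 0.62 and -0.29 for Cfap97, and 0.23 and -0.56 for Ttll9. RO over PA was 0.16 in WT and -0.29 in KO for Cep170b, -0.11 and 0.35 for Cep295, and 0.28 and -0.44 for Cfap161. The same contrast was -0.58 and 0.29 for Cfap53, -0.070 and 0.15 for Cfap74, and 0.44 and -0.47 for Cfap97. For Dnah8 it was 0.033 and -0.24, and for Wdr60 -0.11 and 0.13. Scaling by total count turned the Cfap53 ratio in PA to 0.065 and the Cfap74 stage ratio in WT to 0.025, so that these no longer oppose, and moved the WT stage ratios of Cep295 and Wdr60 to -0.017 and -0.013. Most of these values are small beside the scatter of all genes, and Cfap53 and Cfap97 appear under both contrasts with mirrored signs.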

How the results depend on the processing

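No paired analysis was possible because the groups share only replicate number 1. Of 104 alternative values, 79 kept the call or stayed within the interval and 25 moved. The moved medians of the set kept their sign, and the other moved values were peak counts or shares, which have none. Medians of families were not among these values. That of the Cep genes in PA cells turned from -0.19 to 0.09 when scaled by total count. Scaling by total count moved the median KO over WT ratio in PA to -0.13 and the RO over PA ratio in WT to 0.25; the cause was not tested. Keeping peaks with a fold of at least 5 left 62 in WT PA. Without the Cep family, peaks numbered 46 and 68 in the WT and KO lists of PA and 61 and 51 in those of RO, the coding share was 65.2% in WT PA and 60.7% in WT RO, and 54.1% of WT RO peaks had a WT PA counterpart. Requiring a reciprocal overlap of 50% moved the matched share to 58.8% for WT and 42.5% for KO peaks of PA across genotypes, to 42.1% and 45.3% for those of RO, to 56.7% of PA and 48.3% of RO peaks across the WT stages, and to 73.6% of KO RO peaks with a KO PA counterpart. Counting any peak of the gene as a counterpart moved it to 97.9%, 85.1%, 83.3%, 90.6%, 91.8%, 83.3% and 97.2% in the same order, and to 87.3% for KO PA in KO RO. Limits are the single library per group, names for peaked genes only, and pachytene markers that do not part PA from RO.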
